A study of Saccharomyces cerevisiae with 12 samples.

Results

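Hits of CC-seq were examined at the 9 cyclin genes that drive the budding yeast cell cycle, among 5697 genes with a counted reading frame. CC-seq maps the 5′ ends of DNA that are covalently linked to a protein, here topoisomerase 2 (Top2), 1 nucleotide at a time and on each strand, and each such end is called a hit. The members were chosen by name, with earlier results of these data known. They are the G1 cyclins CLN1, CLN2 and CLN3, the S-phase cyclins CLB5 and CLB6, and the mitotic cyclins CLB1, CLB2, CLB3 and CLB4. For each gene, hits were counted in the reading frame and in the 1 kb upstream of the start codon. All 9 genes have 1 exon, and no 40 bases of any of the 9 frames occur elsewhere in the genome, so hits of paralogues could be told apart. All 18 regions passed the filter on low counts, with 37 to 680 hits per library.

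Cyclins are the regulatory subunits of the kinase Cdc28, and each class directs the kinase to another step of the division cycle. Cln3 starts the G1/S programme, in which the transcription factors SBF and MBF switch on CLN1, CLN2, CLB5 and CLB6. Clb5 and Clb6 promote replication, Clb3 and Clb4 act in spindle formation, and Clb1 and Clb2, transcribed late in the cycle by Mcm1 with a forkhead factor, drive mitosis. Top2 passes one DNA duplex through another by a transient cut in both strands, and stays bound to the cut ends through its active-site tyrosines.

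The study grew BY4741 strains that all carry the pdr1DBD-CYC8 cassette, which lowers drug export, either alone (pdr1), with loss of SAE2 (pdr1sae2) or with loss of MRE11 (pdr1mre11). Vegetative cultures in YPD were exposed for 4 h to 1 mM VP16 (etoposide), which holds Top2 on cut DNA, or to DMSO (untreated). Each of the 6 groups had 2 biological replicates, which gave 12 libraries. No step to synchronise these cultures is described, so each value is an average over the cells of a culture. The libraries held 751850 to 3646842 hits, or 59.4 to 300.2 nuclear hits per kb, and the 4 shallowest, at up to 1109310 hits, were replicate 2 of each untreated strain and replicate 1 of pdr1sae2 with VP16. The MRE11 frame (chrXIII:718575-720653) held 0.0271 to 0.0805 of the mean density in pdr1mre11 and 0.848 to 1.02 in the other libraries. The SAE2 frame (chrVII:173285-174322) held 0.284 to 0.932 of it in pdr1sae2 and 0.793 to 1.18 elsewhere, so that the whole-frame ranges overlapped.

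The cut sites that carried the most VP16 hits upstream of each cyclin gene are shown first, since much of what follows rests on them. A Top2 cut leaves a Watson end and a Crick end offset by 3 bp, so a site was scored as the sum of such a pair over the 6 VP16 libraries, each scaled to its nuclear total. Each sequence is 40 bases of R64 on the coding strand of the gene, 5′ to 3′, centred on the dyad of the cut. The capitals are the 4 bases between the cuts with 1 base on either side, and the first and the complement of the last capital are the bases just 5′ of the cleaved bonds on the 2 strands.
CLN1, 878 bp before the start codon (chrXIII:661746-661785, + strand): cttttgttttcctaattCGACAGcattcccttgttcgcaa
CLN2, 586 bp before (chrXVI:67181-67220, - strand): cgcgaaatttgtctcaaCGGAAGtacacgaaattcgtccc
CLN3, 445 bp before (chrI:67946-67985, - strand): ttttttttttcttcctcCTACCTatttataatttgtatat
CLB5, 345 bp before (chrXVI:775508-775547, - strand): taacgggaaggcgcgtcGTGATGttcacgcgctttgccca
CLB6, 347 bp before (chrVII:706829-706868, - strand): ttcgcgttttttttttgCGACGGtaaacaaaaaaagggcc
CLB1, 887 bp before (chrVII:702729-702768, + strand): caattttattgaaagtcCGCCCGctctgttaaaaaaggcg
CLB2, 630 bp before (chrXVI:771003-771042, + strand): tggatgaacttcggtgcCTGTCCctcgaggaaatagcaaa
CLB3, 169 bp before (chrIV:176584-176623, + strand): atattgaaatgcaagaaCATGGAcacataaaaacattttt
CLB4, 887 bp before (chrXII:561101-561140, + strand): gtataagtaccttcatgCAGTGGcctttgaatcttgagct

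Cytosine stood 5′ of both cleaved bonds at 5 of these 9 sites, and of 1 of the bonds at the other 4. At 8 of the 9 the untreated libraries held 0 to 7 hits each. The exception was the CLB3 site, which held 11 to 284 hits without drug and 34 to 111 hits with it. These sites were selected on their VP16 hits, so the contrast with untreated libraries is a description. Over all hits in the 9 windows, cytosine stood 5′ of the bond for 21.0% to 25.9% in untreated libraries and 50.9% to 68.8% with VP16. In the 9 frames it was 21.7% to 26.3% and 46.3% to 66.3%, and over the whole nuclear genome 21.6% to 23.0% and 46.4% to 65.6%. Thus the base preference under VP16 was seen at every cyclin gene, as over the genome, with no overlap between treatments in any of the 18 regions. How many of all regions lack overlap was not counted, so this is not given as a trait of cyclin genes.

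Each region was then asked whether its share of the hits of a library changed with VP16. Density is given relative to the nuclear mean of the same library, so that 1 is the genome average. Of the 9 upstream windows, 6 rose (49.4% of all 5785 windows did), 2 fell (15.1%), and the CLB2 window passed neither way. Of the 9 frames, 5 fell (54.7% of all 5697 frames), 1 rose (13.6%) and 3 did not pass. A region was called where the quasi-likelihood F test of edgeR, adjusted by Benjamini-Hochberg over the full set of regions, gave p under 0.05. The median log2 change of the member windows was 0.60 beside 0.21 for all windows, and that of the member frames was -0.28 beside -0.30. Only the CLB3 and CLB4 windows hold bases of other frames (714 and 725 bp). The set of all windows was not matched to the members for this, so the excess cannot be credited to cyclin genes. All of these log2 changes are changes in share. With library sizes taken from the human DNA spike-in, the median of all regions moved from -0.025 to 1.46. All 18 cyclin regions then rose, as did 11189 of all 11480 regions tested, so this is no result about cyclins. The calibration factor is shared by both replicates of a group, so its error does not enter these calls.

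**Figure D1:**
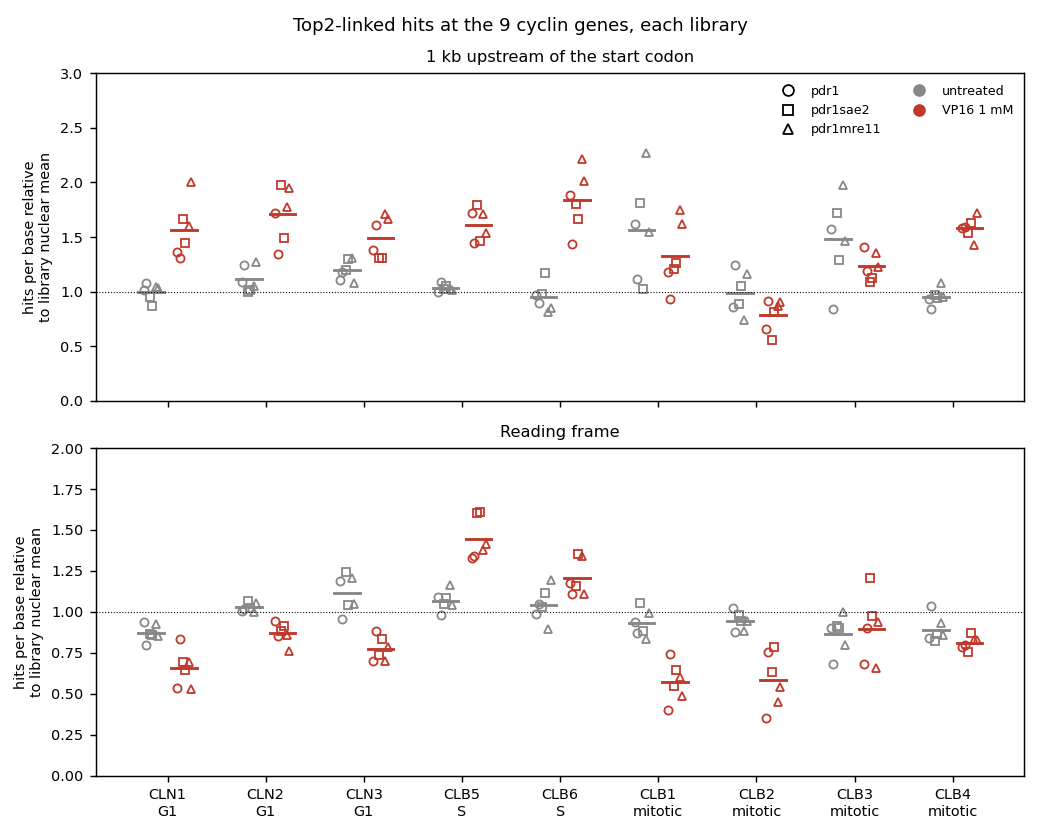
Hits per base relative to the nuclear mean of the same library (vertical axis) for the 1 kb upstream windows (top) and reading frames (bottom) of the 9 cyclin genes; each point is 1 library, symbols give the strain, grey is untreated, red is 1 mM VP16, and bars are means of 6 libraries. The CLB6 window lies between 0.814 and 1.17 untreated and between 1.43 and 2.22 with VP16, whereas the CLB2 frame lies between 0.879 and 1.02 untreated and between 0.355 and 0.788 with VP16.

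Among the G1 cyclins, all 3 windows of 1 kb rose and all 3 frames fell. With windows of 500 bp the changes of CLN2 (0.29, adjusted p = 0.0502 by edgeR) and CLN3 (0.22, adjusted p = 0.101 by edgeR) did not pass. CLN2 (chrXVI:64977-66614, - strand), which encodes a cyclin that commits cells to division, had windows at 1.08 and 1.25 times the mean in untreated pdr1 and 1.72 and 1.34 with VP16. In pdr1sae2 the window stood at 1.00 and 1.02 untreated and 1.98 and 1.49 with VP16. In pdr1mre11 it stood at 1.05 and 1.27 untreated and 1.78 and 1.95 with VP16, so every VP16 library lay above every untreated one. The log2 change was 0.60 ± 0.10 (SE, n = 6 against 6, adjusted p = 1.26e-05 by edgeR). The CLN2 frame went the other way, from 0.999 to 1.07 untreated to 0.760 to 0.946 with VP16, a log2 change of -0.28 ± 0.085 (adjusted p = 0.00494 by edgeR).

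The CLN2 rise was concentrated. The 100 bp bin from 500 to 600 bp before the start codon was the highest of the window in 6 of 6 VP16 libraries, at 3.76 to 7.77 times the mean, and held 36.8% of the VP16 hits of the window. In untreated libraries this bin held 0.580 to 1.35 times the mean. The leading CLN2 site in it took 20.2% of the VP16 hits of the window, with 80 and 27 hits in the pdr1 replicates, 22 and 55 in those of pdr1sae2, 76 and 121 in those of pdr1mre11, and 0 or 1 hit in each untreated library. The Crick end carried 271 of the 381 VP16 hits and the Watson end 110. The 200 bp next to the start codon did not share in the rise, and a window of that size fell (log2 change -0.57, adjusted p = 0.0309 by edgeR). When each position and strand counted at most once, the rise over 1 kb was 0.12 (adjusted p = 0.312 by edgeR), so the call rested on repeated hits at single positions.

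CLN1 (chrXIII:662644-664284, + strand), the closest relative of CLN2, showed a rise of the same size spread over more sites. Its window rose from 0.872 to 1.08 untreated to 1.31 to 2.01 with VP16, a log2 change of 0.60 ± 0.098 (adjusted p = 7.23e-06 by edgeR). The leading CLN1 site held 3.54% of the VP16 hits of the window, and the highest bin, from 600 to 700 bp, held 17.9%. The CLN1 frame fell by 0.49 ± 0.10 on the log2 scale (adjusted p = 1.88e-04 by edgeR), with VP16 values of 0.527 to 0.831 against 0.800 to 0.941 untreated. These ranges overlapped through replicate 2 of pdr1 with VP16.

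CLN3 (chrI:65778-67520, - strand), which acts upstream of the other G1 cyclins, had the smallest rise of the class. Its window held 1.08 to 1.31 times the mean untreated and 1.30 to 1.71 with VP16, with a log2 change of 0.28 ± 0.095 (adjusted p = 0.0121 by edgeR). The 2 pdr1sae2 libraries with VP16 stood at 1.31 and 1.30, beside 1.20 and 1.30 untreated. Without the strongest site of every region, an alternative chosen after seeing the data, the rise was 0.15 (adjusted p = 0.159 by edgeR). The CLN3 frame fell by 0.58 ± 0.098 on the log2 scale (adjusted p = 1.02e-05 by edgeR) without overlap, from 0.957 to 1.24 untreated to 0.701 to 0.881 with VP16.

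Of the S-phase cyclins, both windows rose and no frame fell. CLB6 (chrVII:705359-706501, - strand), a cyclin of early S phase, had the highest log2 change of the 9 windows of 1 kb. It stood at 0.974 and 0.900 in untreated pdr1 and 1.89 and 1.43 with VP16, at 0.980 and 1.17 in untreated pdr1sae2 and 1.80 and 1.67 with VP16, and at 0.814 and 0.847 in untreated pdr1mre11 and 2.22 and 2.01 with VP16. The groups did not overlap, and the window moved from the 18.8 percentile of all windows in untreated libraries to the 89.6 percentile. The log2 change was 0.93 ± 0.11 (adjusted p = 6.72e-08 by edgeR). With each position counted once it was 0.37, below the values of CLN1 (0.50) and CLB5 (0.39), and with 500 bp windows CLB6 (1.05) and CLB5 (1.06) were level. The far part of this window held no hits in any library, and only 692 of its 1000 bases were counted. Of its 961 40-mers, 310 occur elsewhere in the genome, all at least 604 bp before the start codon. Part of this repeated stretch was still counted, with 92 bases in the bin from 600 to 700 bp.

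Within the CLB6 window, the bin from 300 to 400 bp held 46.7% of the VP16 hits and was the highest in 6 of 6 VP16 libraries, at 4.30 to 7.63 times the mean against 0.789 to 1.67 untreated. The leading CLB6 site gave 105 Watson and 95 Crick hits with VP16, a balanced pair. As at CLN2, the 200 bp nearest the start codon did not rise, with 0.438 to 1.61 times the mean with VP16 and 0.716 to 1.19 untreated. The CLB6 frame stood at 0.898 to 1.19 untreated and 1.11 to 1.35 with VP16, a log2 change of 0.19 ± 0.093 that did not pass (adjusted p = 0.0691 by edgeR). It passed without replicate 1 of pdr1sae2 with VP16 (0.22) or replicate 2 of untreated pdr1mre11 (0.24).

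CLB5 (chrXVI:773875-775182, - strand), the main S-phase cyclin, was the only one of the 9 whose frame and window both rose. The window went from 1.00 to 1.09 untreated to 1.44 to 1.79 with VP16, a log2 change of 0.60 ± 0.088 (adjusted p = 1.77e-06 by edgeR). Its frame went from 0.979 to 1.16 untreated to 1.33 to 1.61 with VP16, a log2 change of 0.38 ± 0.088 (adjusted p = 4.60e-04 by edgeR). Neither pair of ranges overlapped. The bin from 300 to 400 bp held 34.2% of the VP16 hits upstream, and that from 800 to 900 bp into the frame held 23.5% of those in the frame, at 3.76 to 5.01 times the mean against 0.505 to 2.83 untreated. The leading CLB5 window site was lopsided, with 180 Watson and 20 Crick hits. With each position counted once, the change of the CLB5 frame was 0.14 (adjusted p = 0.131 by edgeR).

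The plot of hit density around the start codons shows the CLN2, CLB5 and CLB6 peaks as narrow rises of the VP16 libraries over a nearly flat untreated line.

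**Figure D2:**
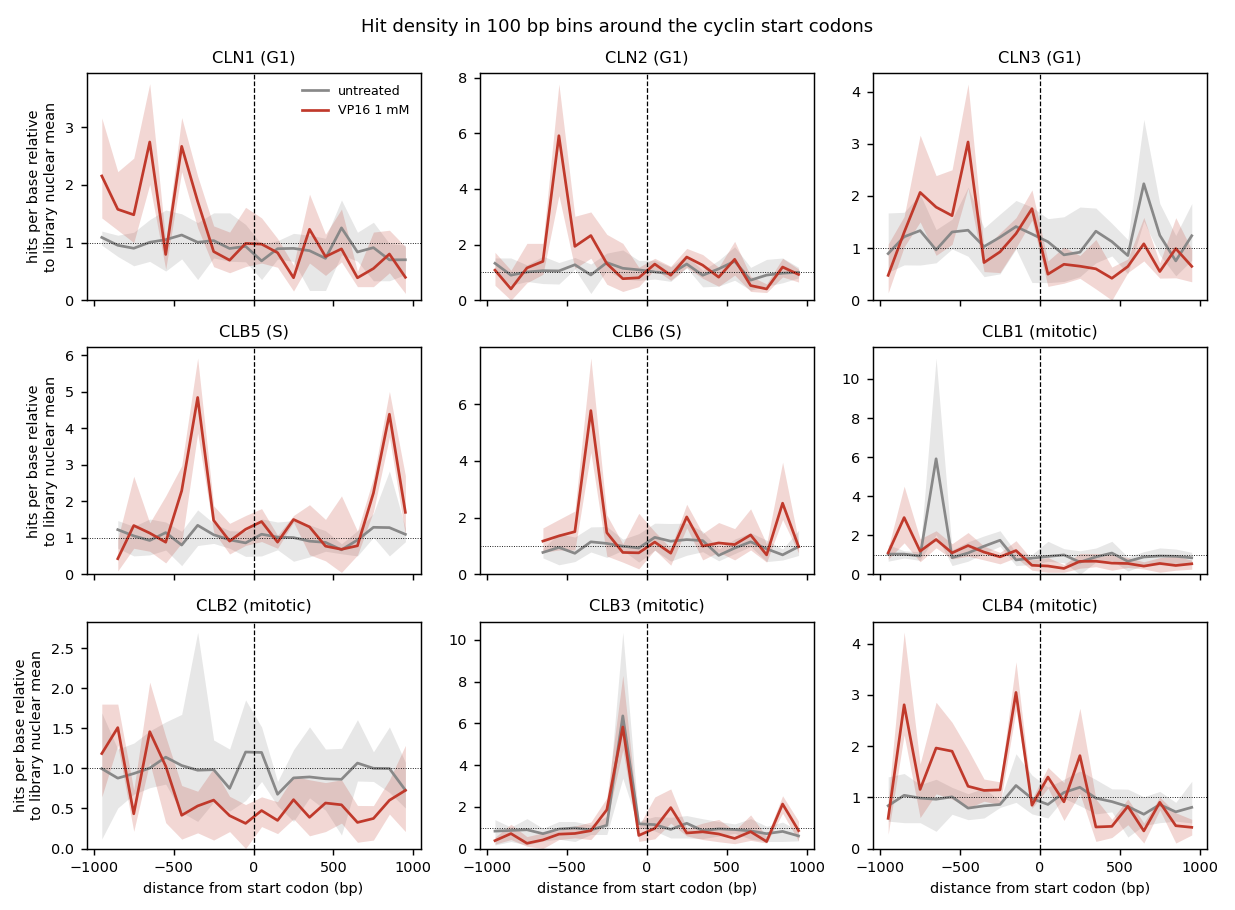
Hit density in 100 bp bins (vertical axis, relative to the nuclear mean of the library) against distance from the start codon in bp, in the direction of transcription and up to 1 kb into the frame, for each cyclin gene; lines are means of 6 libraries, shading is the range of the 6, grey is untreated and red is 1 mM VP16, and bins with fewer than 50 counted bases are left blank. Vertical scales differ between panels. The CLN2 bin from 500 to 600 bp upstream reaches a mean of 5.91 and the CLB6 bin from 300 to 400 bp a mean of 5.77 with VP16, while the tallest CLB1 bin is an untreated one.

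The stretches under the CLN2 and CLB6 peaks are printed in full. Each bin held over 1 in 3 of the VP16 hits of its window. So did the highest bins of CLB3 (100 to 200 bp, 47.2%) and CLB5 (300 to 400 bp, 34.2%), which are not printed. Each printed stretch is 120 bases of R64 on the coding strand, the bin with 10 bases on either side. Capitals mark matches to 3 motifs searched on both strands: SCB (CACGAAA), which SBF binds, MCB (ACGCGT), which MBF binds, and forkhead (GTAAACA).
CLN2, bin from 500 to 600 bp (chrXVI:67105-67224, - strand): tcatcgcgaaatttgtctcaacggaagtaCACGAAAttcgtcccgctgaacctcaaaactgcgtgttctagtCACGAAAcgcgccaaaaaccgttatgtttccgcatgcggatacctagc
CLB6, bin from 300 to 400 bp (chrVII:706792-706911, - strand): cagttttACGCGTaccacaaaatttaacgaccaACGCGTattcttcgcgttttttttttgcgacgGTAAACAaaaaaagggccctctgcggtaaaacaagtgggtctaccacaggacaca

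The CLN2 stretch holds 2 SCB matches and the CLB6 stretch 2 MCB matches and 1 forkhead match. The dyad of the leading CLN2 site lay 586 bp before the start codon, and the nearer SCB match ended at 574 bp. The dyad of the leading CLB6 site lay at 347 bp, and the forkhead match beside it ended at 338 bp. Over the 1 kb windows, SCB occurred in CLN1 and CLN2 (12.6% of all windows hold it), MCB in CLN1, CLB6 and CLB2 (8.52%), and forkhead in CLN1, CLB6, CLB1, CLB2 and CLB4 (17.8%). The windows of CLN3, CLB5 and CLB3 held no exact match to any of the 3 motifs. Only these exact letters were searched, and near matches were not counted. The printed CLB5 site, for example, holds gcgcgt and acgcgc, which are close to MCB. A match is a description of the sequence and does not show that a factor was bound.

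The mitotic cyclins did not move as a class. CLB4 (chrXII:562008-563390, + strand) had a window that rose, as those of the G1 cyclins did, without overlap from 0.842 to 1.08 untreated to 1.43 to 1.72 with VP16 (log2 change 0.67 ± 0.092, adjusted p = 5.82e-07 by edgeR). With each position counted once the change was 0.20 (adjusted p = 0.0464 by edgeR). Of this window, 725 bp lie inside the divergent gene PNP1, which starts 275 bp from the CLB4 start codon. The bin from 100 to 200 bp, in the gap between the 2 genes, was the highest on average at 2.70 to 3.65 times the mean with VP16, against 0.902 to 1.85 untreated, and the leading site at 887 bp lay within PNP1. The CLB4 frame stood at 0.820 to 1.04 untreated and 0.754 to 0.869 with VP16 (log2 change -0.16 ± 0.088, adjusted p = 0.107 by edgeR).

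CLB2 (chrXVI:771653-773128, + strand), the main mitotic cyclin, lost share over a long stretch. Its frame stood at 1.02 and 0.879 in untreated pdr1 and 0.355 and 0.755 with VP16, at 0.980 and 0.947 in untreated pdr1sae2 and 0.633 and 0.788 with VP16, and at 0.885 and 0.947 in untreated pdr1mre11 and 0.451 and 0.538 with VP16. No VP16 library reached an untreated one, and the log2 change was -0.75 ± 0.13 (adjusted p = 1.30e-05 by edgeR). The mean with VP16 was below the untreated mean in 14 of the 15 bins of the frame, and the exception was the bin at its end. In that bin the leading CLB2 frame site, 1422 bases into the frame, held 16.2% of the VP16 hits of the frame.

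Upstream of CLB2 the deficit was largest next to the start codon. The nearest 200 bp held 0.533 to 1.41 times the mean untreated and 0.106 to 0.500 with VP16, without overlap, a log2 change of -1.30 (adjusted p = 4.99e-04 by edgeR). For 500 bp the change was -1.04 (adjusted p = 1.09e-04 by edgeR). Over the full 1 kb it was -0.28 ± 0.13 and did not pass (adjusted p = 0.0555 by edgeR), and by DESeq2 it was -0.32 (adjusted p = 0.0432). Leaving out each library in turn gave -0.42 to -0.21, and the window passed without replicate 1 of untreated pdr1 (-0.34) or of untreated pdr1mre11 (-0.42), or without replicate 2 of pdr1 (-0.33), pdr1sae2 (-0.33) or pdr1mre11 (-0.33) with VP16. The CLB2 window ranked at the 7.23 percentile of all windows with VP16 and at the 32.6 percentile untreated.

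CLB1 (chrVII:703636-705051, + strand), the closest relative of CLB2, matched it in the frame, which fell without overlap from 0.837 to 1.06 untreated to 0.400 to 0.742 with VP16 (log2 change -0.75 ± 0.11, adjusted p = 2.52e-06 by edgeR). Its window was set apart by the untreated libraries. They stood at 1.62 and 1.11 in pdr1, 1.81 and 1.03 in pdr1sae2 and 2.27 and 1.54 in pdr1mre11, and the VP16 libraries at 0.936 to 1.75. The ranges overlapped, and the log2 change was -0.33 ± 0.12 (adjusted p = 0.0191 by edgeR).

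One pair of positions, 656 bp before the CLB1 start codon, held 36.7% of the untreated hits of this window and 3.82% of the VP16 hits. It is printed because the call depends on it.
CLB1, untreated site (chrVII:702960-702999, + strand): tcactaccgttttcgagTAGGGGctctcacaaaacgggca
The site held 135 and 8 hits in untreated pdr1, 156 and 9 in pdr1sae2 and 299 and 31 in pdr1mre11, and 4 to 17 hits in each VP16 library. Per 1000000 nuclear hits this was 9.32 to 86.3 untreated and 2.48 to 6.85 with VP16, and replicate 1 stood above replicate 2 in each untreated strain. Both ends of the pair took part, with 363 Watson and 275 Crick hits untreated. Without the strongest site of every region the CLB1 window changed by 0.18 (adjusted p = 0.0885 by edgeR), and with each position counted once it rose by 0.33 (adjusted p = 0.00110 by edgeR). The fall of the CLB1 window therefore rested on 1 site.

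CLB3 (chrIV:176773-178056, + strand) also had a site that was strong without drug. The leading CLB3 site, printed above, held 39.8% of the untreated and 31.7% of the VP16 hits of its window. Its strands were used unequally and in opposite senses, with 122 Watson and 522 Crick hits untreated and 368 Watson and 67 Crick hits with VP16. In every untreated library the Crick end was the larger, and in every VP16 library the Watson end. The CLB3 window fell by 0.35 ± 0.12 on the log2 scale (adjusted p = 0.0135 by edgeR), with 0.842 to 1.98 times the mean untreated and 1.09 to 1.41 with VP16. Of this window 714 bp lie inside the tandem gene CMR1, and without those bases the change was -0.22 (adjusted p = 0.200 by edgeR). The CLB3 frame did not change detectably, at 0.682 to 1.00 untreated and 0.656 to 1.21 with VP16 (log2 change -0.056 ± 0.11, adjusted p = 0.674 by edgeR).

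The falls of the CLB1 and CLB3 windows also depended on single libraries. Without replicate 1 of untreated pdr1sae2 the changes were -0.22 and -0.26 (adjusted p = 0.124 and 0.0738 by edgeR), and without replicate 1 of untreated pdr1mre11 they were -0.26 and -0.26 (adjusted p = 0.0760 and 0.0699 by edgeR). For CLB1, leaving out replicate 1 of untreated pdr1 gave -0.24 (adjusted p = 0.104 by edgeR), and leaving out replicate 2 of pdr1 with VP16 gave -0.29 (adjusted p = 0.0503 by edgeR).

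**Figure D3:**
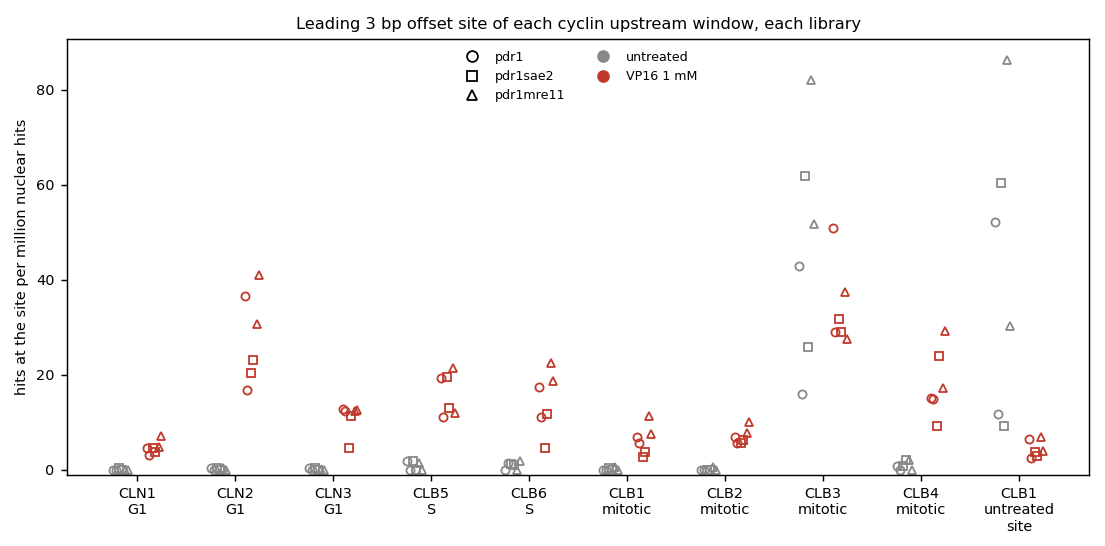
Hits at 1 offset pair of positions per 1000000 nuclear hits (vertical axis) in each library, for the leading VP16 site of each of the 9 cyclin windows and, at the right, for the leading untreated site of the CLB1 window; symbols give the strain, grey is untreated and red is 1 mM VP16. The CLB1 untreated site reaches 86.3 in untreated libraries and at most 6.85 with VP16, and the CLB3 site is high in both treatments.

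The window and the frame of each gene were next set against each other, a contrast in which the scaling between libraries cancels. The window gained on the frame under VP16 at 7 of the 9 cyclin genes (62% of 5695 genes) and lost at none (9.29%). The count of genes that lost was also 0 by DESeq2 and at an unadjusted p under 0.05. The median log2 change was 0.73, beside 0.49 for all genes, which again were not matched for bases of other frames in the window. CLN1 led with 1.10 ± 0.15 (adjusted p = 1.70e-07 by edgeR), followed by CLN2 with 0.88 ± 0.13, CLN3 with 0.87 ± 0.12, CLB4 with 0.83 ± 0.12 and CLB6 with 0.73 ± 0.14. Among these 5 genes, the gap to the next was smaller than the SE of either gene at every step except that from CLN1 to CLN2, and the gaps were not tested. CLB2 gained 0.49 ± 0.16 and CLB1 0.44 ± 0.17 (adjusted p = 0.00849 and 0.0197 by edgeR), in both cases with a window that had not risen and a frame that had fallen. The gain of CLB1 lost its call without replicate 1 of pdr1 with VP16 (0.31), replicate 2 of untreated pdr1mre11 (0.34) or replicate 2 of pdr1mre11 with VP16 (0.40). That of CLB2 lost it without replicate 1 of untreated pdr1 (0.38) or of untreated pdr1mre11 (0.34). CLB5 did not pass (0.22 ± 0.12, adjusted p = 0.108 by edgeR), with a frame that had risen as well. With a 500 bp window CLB5 passed at 0.68 (adjusted p = 8.98e-05 by edgeR). With each position counted once CLB6 lost its call (0.18, adjusted p = 0.220 by edgeR) and CLB5 passed (0.26, adjusted p = 0.0359 by edgeR). CLB3 was the single negative value, at -0.29 ± 0.16 (adjusted p = 0.0909 by edgeR), and it passed without replicate 2 of untreated pdr1 (-0.36), replicate 1 of pdr1 with VP16 (-0.41) or replicate 1 of pdr1mre11 with VP16 (-0.39).

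**Figure D4:**
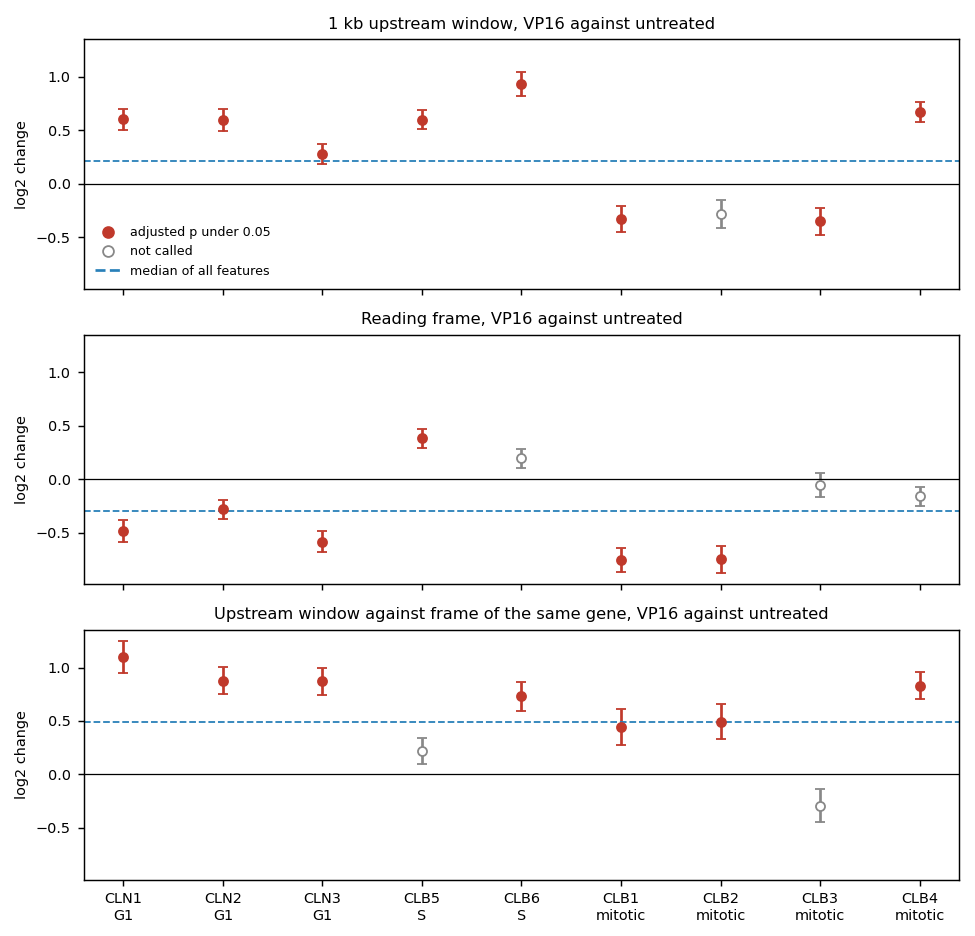
Log2 change with VP16 (vertical axis) for the 1 kb upstream window (top), the reading frame (middle) and the window against the frame of the same gene (bottom) of each cyclin gene; points are estimates, bars are 1 SE over 6 against 6 libraries, filled red points have an adjusted p under 0.05, and the dashed line is the median of all regions or genes tested. CLN1 reaches 1.10 in the bottom panel, and CLB1 and CLB2 share the lowest frame values at -0.75.

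Summed by class, the upstream windows separated under VP16. The G1 windows held 1.05 to 1.17 times the mean untreated and 1.41 to 1.87 with VP16, and the S windows 0.936 to 1.10 and 1.44 to 1.93. The mitotic windows held 1.01 to 1.52 untreated and 1.10 to 1.37 with VP16, and so did not separate. The log2 ratio of G1 to mitotic windows averaged -0.16 untreated and 0.36 with VP16, a mean change of 0.53 beside a within-group SD of 0.20. For S against mitotic windows the change was 0.78 (SD 0.22). With each position counted once these changes were 0.22 and 0.32. The untreated mitotic sum includes the CLB1 and CLB3 sites that held 36.7% and 39.8% of the untreated hits of their windows. With windows of 200 bp both changes were close to 0, at -0.066 and -0.022. In these 200 bp CLB3, with its site at 169 bp, averaged 3.77 times the mean untreated and 3.23 with VP16. CLB2 went from 0.977 to 0.362, CLB4 from 1.10 to 1.95 and CLB1 from 0.783 to 0.840. The mitotic sum is thus dominated by CLB3 and mixes opposite changes, so these values do not show where the separation arose. The CLB3 and CLB4 windows hold 714 and 725 bp of other frames, and the G1 and S windows hold none. Whether this shaped the separation was not tested.

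In the frames, the summed S density went from 1.01 to 1.11 untreated to 1.23 to 1.49 with VP16, although of its 2 genes only CLB5 had passed. The G1 frames went from 0.926 to 1.06 down to 0.694 to 0.855, and the mitotic frames from 0.869 to 0.944 down to 0.550 to 0.816. The log2 ratio of S to mitotic frames averaged 0.22 untreated and 0.92 with VP16, a change of 0.71 (within-group SD 0.18). The ratio of G1 to S frames fell by 0.73 (SD 0.12), and that of G1 to mitotic frames changed by -0.024 (SD 0.12). No test was made of these ratios, since each class has only 2 to 4 genes and CLB4 and CLB3 differ from CLB1 and CLB2. Both S genes also lie next to a mitotic gene, in convergent pairs. The CLB5 and CLB2 frames are 746 bp apart, and the CLB6 and CLB1 frames 307 bp, so these genes are not separate loci.

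**Figure D5:**
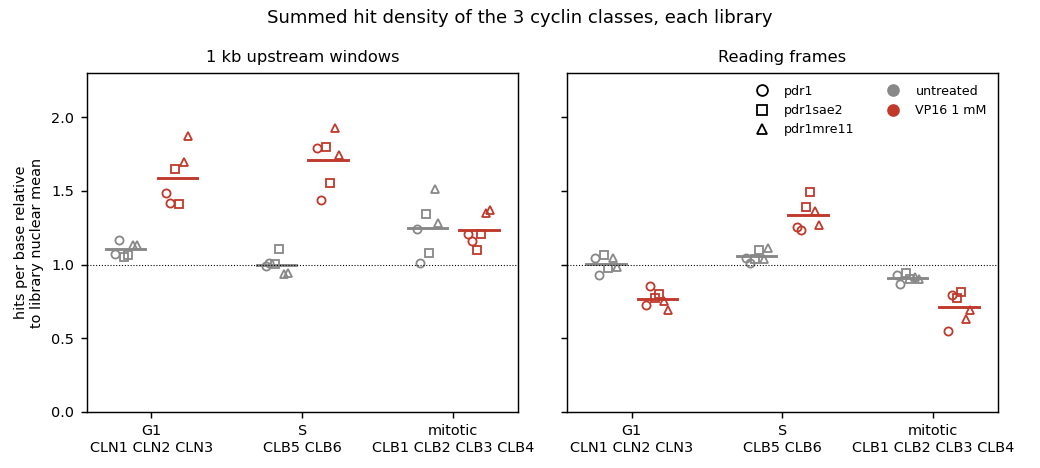
Summed hits per base relative to the nuclear mean of the library (vertical axis) for the G1, S and mitotic cyclins, in upstream windows (left) and frames (right); each point is 1 library, symbols give the strain, grey is untreated, red is 1 mM VP16, and bars are means of 6 libraries. The S frames lie between 1.23 and 1.49 with VP16, above the G1 frames (0.694 to 0.855) and the mitotic frames (0.550 to 0.816).

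The strongest VP16 sites within the frames were also compared, because several B-type cyclins are paralogues. The leading frame site of CLB1 had surroundings similar to those of the leading frame site of CLB5 and the second site of CLB2. This likeness was noticed after the sites were listed. The best in-frame match to the 40 bases of the CLB1 site was then found in each B-type cyclin frame, and its hits are given below. The capitals are as above.
CLB1 (chrVII:704670-704709, + strand): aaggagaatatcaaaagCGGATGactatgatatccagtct
CLB2 (chrXVI:772747-772786, + strand): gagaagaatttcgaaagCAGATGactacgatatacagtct
CLB3 (chrIV:177687-177726, + strand): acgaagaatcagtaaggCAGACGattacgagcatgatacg
CLB4 (chrXII:563039-563078, + strand): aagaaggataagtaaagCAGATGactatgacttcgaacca
CLB5 (chrXVI:774238-774277, - strand): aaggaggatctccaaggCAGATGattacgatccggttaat
CLB6 (chrVII:705683-705722, - strand): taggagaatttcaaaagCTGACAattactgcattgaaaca

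Of the 40 bases, 33 were identical to CLB1 in CLB2, 28 in CLB4, 25 in CLB5 and CLB6, and 21 in CLB3, and the next best places in the frames of CLB3 and CLB6 matched 20 and 23, so these 2 matches are weakly placed. Over the 6 VP16 libraries the site held 31 hits in CLB1, where it ranked 1 of 1413 pairs in the frame, 34 in CLB2 (rank 2 of 1473), 120 in CLB5 (rank 1 of 1305), 51 in CLB3 (rank 3 of 1281) and 22 in CLB4 (rank 10 of 1380). In these 5 genes cytosine stood 5′ of the bond on both strands. CLB6 has it on 1 strand only, and there the site held 5 hits (rank 50 of 1140). Untreated libraries held 0 to 3 hits each at the site in all 6 genes. The sites of CLB1, CLB5 and CLB2 were those from which the likeness was noticed, so their ranks are a description.

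The response was then followed within each strain. In pdr1, 3 of the 9 windows rose (29.5% of all windows) and 3 of the 9 frames fell (32.6% of all frames). In pdr1sae2, 5 windows rose (21.7%) and 2 frames fell (26%), and in pdr1mre11, 6 windows rose (36.9%) and 5 frames fell (39.1%). CLB4, CLB5 and CLB6 were the windows that passed in all 3 strains by edgeR. The CLB6 window changed by 0.78 ± 0.18 in pdr1, 0.65 ± 0.17 in pdr1sae2 and 1.32 ± 0.17 in pdr1mre11. The CLN3 window changed by 0.35 ± 0.17, 0.015 ± 0.17 and 0.44 ± 0.16 in the same order.

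No difference between strains was called at a cyclin gene. Between pdr1sae2 and pdr1 under VP16, 0 of the 18 cyclin regions passed (0% of all 11482 regions), and between pdr1mre11 and pdr1, 0 of 18 did (0.00871%, 1 region that is no cyclin). At an unadjusted p under 0.05 there were 1 and 3 cyclin regions, namely the CLB3 frame in pdr1sae2 and the windows of CLB1, CLN1 and CLB6 in pdr1mre11, beside 225 and 1002 of all 11482 regions. The interactions of VP16 with the strain gave 0 of 18 in both mutants (0% and 0% of all regions), with 0 and 1 cyclin regions at an unadjusted p under 0.05, beside 90 and 310 of all 11482 regions, the one being the CLB6 window in pdr1mre11 (0.54 ± 0.24, adjusted p = 1.00 by edgeR). DESeq2 also called 0 of 18 in each of these 4 contrasts. With 2 libraries per group, differences of this size could not be told from the spread between replicates.

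On the scale calibrated by the spike-in, every cyclin window had more signal with VP16 than without in each strain. In pdr1, the VP16 signal of the CLB6 window was 2.97 times the untreated signal, in pdr1sae2 4.01 times and in pdr1mre11 12.1 times. The ratio of the CLN2 window was 2.21, 4.28 and 7.64 in the same order. The ratio of the CLB2 frame was 0.973, 1.84 and 2.57. For the whole nuclear genome it was 1.67, 2.49 and 4.75. Thus the CLB6 window lay above and the CLB2 frame below the genome in each strain, while the order among the highest windows differed between strains. The same calibration factor is listed for both replicates of a group, so these ratios have no error and were not tested.

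A list of 36 other genes of the cyclin pathway held, among others, the kinase, its inhibitors, transcription factors and ubiquitin ligases that act on cyclins. Of these 36 genes 35 could be tested, 1 lying on chromosome III, which was left out. Of their 35 windows 23 rose and 4 fell (49.4% and 15.1% of all windows), with a median log2 change of 0.38 beside 0.21 for all windows. The extremes were HSL1, a kinase that restrains the mitotic inhibitor Swe1 (1.01 ± 0.093, adjusted p = 2.10e-09 by edgeR), and NDD1, a co-activator of CLB2 transcription (-0.62 ± 0.098, adjusted p = 4.41e-06 by edgeR). Of their frames 24 fell and 3 rose (54.7% and 13.6% of all frames), with a median of -0.36 beside -0.30. Here WHI5, the repressor of SBF, led with 0.76 ± 0.12 (adjusted p = 8.08e-06 by edgeR), and the forkhead gene FKH1 was lowest at -1.19 ± 0.096 (adjusted p = 2.98e-10 by edgeR). The window gained on the frame at 27 genes (62% of all genes) with a median of 0.74 beside 0.49, and no gene of the list passed in the other direction by edgeR.

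The windows of other genes whose pattern over the 12 libraries was most like the mean of the 9 cyclin windows were those of RNR4 (Pearson r = 0.985), RPF1 (0.984) and ADH3 (0.981). These correlations are over libraries that differ mainly in treatment, and are given as a description.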

How the data were processed

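The authors aligned paired reads with Bowtie2 to Cer3H4L2, which is Cer3 with sequence added on chromosome III, left out repeats, telomeres and rDNA, and deposited, per library, counts of protein-linked 5′ ends by position and strand. No molecular identifiers were used, so repeated hits at a position may be copies. They also deposited a spike-in calibration factor, a ratio shared by both replicates of a group. Coordinates and sequences are from RefSeq's R64, which is Cer3 without that addition, and chromosome III was left out.

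Hits were counted in frames, 1 kb windows and intergenic regions, leaving out runs of at least 100 bases without a hit in any library (537901 bp). Counts were fitted in R 4.3.3 with edgeR 4.0.16 (strain and treatment, TMM factors, filterByExpr, quasi-likelihood test, Benjamini-Hochberg adjustment over all regions). Window against frame was fitted over both counts of a gene with a term per library. Groups were compared in a second fit with 1 mean per group. Scripts were tested on simulated data. The alternatives were other scalings, DESeq2 1.42.0, filters, window sizes, single counting of positions, a replicate term and leaving out each library. SE is the log2 change over the root of the F statistic. The named genes are the 9 members, a pathway list, SAE2 and MRE11, window neighbours, and the 3 windows most like the members; the members and lists were chosen with earlier results of these data known. Replicates are biological by their labels. They share a number across groups, but deviations from the group means did not pair by number in every pair of groups.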

Additional observations from a re-analysis of the deposited data

How the results depend on the processing

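Scaling by the spike-in called 11193 regions, 11189 higher and 4 lower, beside 3632 higher and 3994 lower with TMM factors. The factor is the same for both replicates of a group, so the error of the calibration does not enter these calls. All 9 cyclin frames then rose and 0 fell, and 0 cyclin windows fell. The reversed windows were CLB1 at 1.18, CLB2 at 1.12 and CLB3 at 1.17. The reversed frames were CLN1 at 1.02, CLN2 at 1.20, CLN3 at 0.91, CLB1 at 0.73, CLB2 at 0.74, CLB3 at 1.46 and CLB4 at 1.31. With total nuclear hits 2 cyclin frames rose. With each position counted once 0 cyclin frames rose, 0 windows fell, CLB1 upstream reversed to 0.33, and window against frame of CLB3 reversed to 0.058. The class changes were then 0.22 for G1 over mitotic windows, 0.32 for S over mitotic windows, -0.10 for G1 over S windows, 0.47 for S over mitotic frames and -0.44 for G1 over S frames.

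For windows of 500 and 200 bp the share of all windows called is not given. The member counts at these sizes are therefore set beside the 1 kb calls of the members only. With 500 bp windows 4 cyclin windows rose and 1 fell, CLN2 and CLN3 losing their calls, and CLB2 window against frame reversed to -0.27. The class changes were 1.15 for S over mitotic and -0.72 for G1 over S. With 200 bp windows 1 cyclin window rose and 3 genes gained upstream against frame. The windows of CLN1 (-0.17), CLN2 (-0.57), CLB6 (-0.43) and CLB1 (0.056) reversed, as did window against frame of CLN2 (-0.29), CLB5 (-0.14), CLB6 (-0.65) and CLB2 (-0.54). The class changes were -0.066 for G1 over mitotic, -0.022 for S over mitotic and -0.044 for G1 over S. Without the strongest site of every region, chosen after seeing the data, the CLB1 window reversed to 0.18 and CLB3 window against frame to 0.0088. With at least 50 hits in every library 2448 genes were called upstream against frame, of fewer genes tested, and 0 regions between pdr1mre11 and pdr1. Leaving out bases of other frames ended the call of the CLB3 window.

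Leaving out each library in turn gave 7139 to 7611 regions called, 6 cyclin windows higher, 0 to 3 lower, 1 to 2 frames higher and 5 lower, and 6 to 7 genes higher upstream against frame. The CLB3 frame ranged from -0.11 to 0.037 and the G1 over mitotic frame ratio from -0.074 to 0.026. The replicate block gave 7800 regions called, and 3 cyclin windows lower since CLB2 passed at -0.34 (adjusted p = 0.00577 by edgeR). It gave 2 regions between pdr1mre11 and pdr1 and 1 interaction, neither at a cyclin. The check of pairing gave r from -0.24 to 0.51, over 0.1 in 12 of 15 pairs of groups. No filter changed nothing, since every region passed the filter. Precision was limited by depth at single sites, where untreated libraries held few hits, and by 2 libraries per group.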
